A study of Mus musculus with 3 samples.

Results

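The genes described here encode the receptors for the inhibitory transmitters GABA and glycine and the proteins that hold these receptors at inhibitory synapses. They were taken by gene symbol from a fixed list of 31 genes, of which 30 were found among the 39377 rows of the table. The list does not cover every subunit gene of these receptor families, so shares below are shares among listed genes only. Insyn2a was looked for by its symbol, its older symbols and its Entrez identifier, matched no row, and was not analysed here.

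RNA-seq was carried out on total RNA of hippocampus from wild-type (WT) C57BL/6 mice at postnatal day 14, with no treatment named in the labels. The 3 libraries form 1 group of mixed cell types and are called libraries 1, 2 and 3, by the numbers in the sample titles. With no second condition, the comparisons are between genes inside the same libraries. Nothing in the labels tells if each library had its own animal. P-values therefore speak only to variation among these 3 samples, and that variation may be technical. The SE and p-values of gene comparisons use limma variances that are pooled in part over all genes tested. They do not measure the spread of the 3 values of a gene alone. Levels are FPKM (fragment numbers scaled to transcript length and to sequencing depth), and ± stands for the SD across the 3 libraries (n = 3).

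GABA-A receptors are pentameric chloride channels built from alpha, beta and gamma or delta subunits, and the subunit mix sets where they sit and how they respond. Receptors with gamma subunits gather at synapses on a lattice of gephyrin, while those with delta or with the alpha5 subunit also carry tonic current outside synapses. GABA-B receptors are G-protein-coupled heterodimers. Glycine receptors are chloride channels of alpha and beta subunits, and the beta subunit binds gephyrin. In the hippocampus, inhibitory signalling matures over the first postnatal weeks as interneurons connect to pyramidal and granule cells.

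The smallest steps in the FPKM of low genes gave estimated depths of 3699000, 4134000 and 5984000 fragments in libraries 1, 2 and 3. A level of 3 fragments on a transcript of 2 kb then equals 0.470, 0.415 and 0.286 FPKM. Markers of hippocampal excitatory neurons (7 of 7) and interneurons (13 of 13) were at 1 FPKM or more, with summed levels of 599 to 690 and 1842 to 2108 FPKM. Most of the excitatory sum was Slc17a7 (mean 452 FPKM), and most of the interneuron sum was Cck (804) and Sst (712). Gad1, Slc32a1 and Gad2 of the interneuron list were at 52.5, 22.9 and 16.3 FPKM. These sums follow a few genes and do not compare the amounts of the cell types. The list medians were 23.2 FPKM for excitatory neurons and 18.4 FPKM for interneurons. Of the cerebellar granule cell markers 0 of 4 reached 1 FPKM (sum 0.49 to 1.01), and the hindbrain and spinal markers Slc6a5, Hoxb5 and Hoxb8 were listed at 0 in every library. The retinal markers summed to 0.06 to 0.25 FPKM, with Crx and Grm6 listed at 0, and the hypothalamic ones to 2.57 to 4.97, with Oxt and Avp at 0. Of the hypothalamic markers 1 of 6 reached 1 FPKM (Pomc, mean 2.68). Striatal markers summed to 13.8 to 17.9 FPKM, with 2 of 4 at 1 FPKM or more. Thalamic ones summed to 13.5 to 17.2 FPKM, with 3 of 3 at that level. Most of these sums came from Ppp1r1b (mean 11.2 FPKM) and Prkcd (mean 12.5 FPKM). The striatal Adora2a had a mean of 3.03 FPKM, and the thalamic Tcf7l2 and Lef1 had means of 1.58 and 1.13. The striatal Drd1 and Drd2 were under 1 FPKM. Library 3 stood apart for Bc1, a small neuronal RNA that was at 124074 and 179412 FPKM in libraries 1 and 2 and listed at 0 in library 3. The depth fit took 275, 250 and 250 bases off each transcript length in libraries 1, 2 and 3. FPKM of such a short RNA are therefore unsure as levels, and the 0 does not show that Bc1 was absent. Choroid plexus markers (4 of 4 at 1 FPKM or more) summed to 397, 1082 and 1310 FPKM in libraries 1, 2 and 3. Nearly all of this was Ttr, at 392, 1071 and 1296 FPKM. Astrocyte markers summed to 740 to 840 FPKM, microglial ones to 73.4 to 78.7, oligodendrocyte precursor ones to 39.8 to 47.3 and endothelial ones to 62.8 to 65.5. In bulk tissue, fewer cells of a type and less RNA per cell cannot be told apart.

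Promoter windows of 5 members are printed because their genes span the range of levels described below or start next to each other. Each window runs from 250 bases before to 50 bases after a transcript start, is written 5′ to 3′ on the gene's strand, and comes from RefSeq on GRCm38.p6. Capitals mark the dinucleotide CG, which reads the same on both strands. Gabra5, the highest of the listed channel subunits, has its window at chr7:57510010-57510309 on the minus strand, and Gabra6, a subunit known from cerebellar granule cells, at chr11:42321023-42321322 on the minus strand. Gphn, the gephyrin gene, has its window at chr12:78226405-78226704 on the plus strand. The windows of Gabra5 and Gphn lie inside the annotated gene spans (57407669 to 57591016 and 78217325 to 78684772), so they sit at internal transcript starts. Gabra4 (chr5:71658259-71658558, minus strand) and Gabrb1 (chr5:71657671-71657970, plus strand) start beside each other and run in opposite directions.
Gabra5: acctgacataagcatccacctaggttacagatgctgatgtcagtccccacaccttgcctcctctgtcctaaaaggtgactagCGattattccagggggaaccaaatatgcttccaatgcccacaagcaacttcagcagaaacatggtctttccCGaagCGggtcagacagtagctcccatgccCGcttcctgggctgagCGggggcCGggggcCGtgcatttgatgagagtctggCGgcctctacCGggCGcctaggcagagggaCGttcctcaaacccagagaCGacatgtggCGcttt
Gabra6: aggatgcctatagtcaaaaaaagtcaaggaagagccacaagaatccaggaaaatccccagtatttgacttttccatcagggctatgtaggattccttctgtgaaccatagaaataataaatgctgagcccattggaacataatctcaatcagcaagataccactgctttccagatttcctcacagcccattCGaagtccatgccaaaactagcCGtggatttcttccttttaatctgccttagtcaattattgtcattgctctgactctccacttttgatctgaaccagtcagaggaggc
Gphn: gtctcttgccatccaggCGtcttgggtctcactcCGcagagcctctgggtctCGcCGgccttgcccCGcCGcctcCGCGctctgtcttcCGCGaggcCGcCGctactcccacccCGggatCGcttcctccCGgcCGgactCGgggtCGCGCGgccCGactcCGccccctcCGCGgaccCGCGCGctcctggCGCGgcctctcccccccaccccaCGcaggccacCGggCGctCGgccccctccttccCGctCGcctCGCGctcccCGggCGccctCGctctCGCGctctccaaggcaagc
Gabra4: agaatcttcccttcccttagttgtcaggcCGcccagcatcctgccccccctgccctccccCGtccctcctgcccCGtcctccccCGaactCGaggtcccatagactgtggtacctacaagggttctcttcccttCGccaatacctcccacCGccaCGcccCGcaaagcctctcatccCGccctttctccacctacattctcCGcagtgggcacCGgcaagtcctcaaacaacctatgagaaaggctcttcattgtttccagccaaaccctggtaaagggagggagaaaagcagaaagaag
Gabrb1: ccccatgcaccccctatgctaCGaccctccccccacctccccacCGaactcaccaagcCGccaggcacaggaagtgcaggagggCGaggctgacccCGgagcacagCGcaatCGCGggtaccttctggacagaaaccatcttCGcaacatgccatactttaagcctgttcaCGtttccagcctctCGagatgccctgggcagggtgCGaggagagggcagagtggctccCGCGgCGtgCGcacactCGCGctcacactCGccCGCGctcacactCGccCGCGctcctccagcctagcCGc

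These windows hold 13 CG in Gabra5, 2 in Gabra6, 42 in Gphn, 12 in Gabra4 and 25 in Gabrb1. Over all 32851 windows of the table the median was 7 CG, and 94.6% of windows held at least 1. Windows were matched for 28 members, taking the one with most CG where a gene had several, and Gabrd and Glra1 had no entry. The 19 matched members at 1 FPKM or more had a median of 18 CG (range 0 to 46) and the 9 matched members under 1 FPKM a median of 4 (range 2 to 24). The ranges overlapped: Gabra3 was well expressed with 0 CG in its window, while Gabre, listed at 0, held 24. A count of CG is a description of the letters in this window and was not tested.

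Of the 30 genes found, 20 had a mean of at least 1 FPKM, 7 were above 0 with a lower mean, and 3 were listed at 0 in all libraries. Over all genes above 0 in at least 1 library, 70.0% had a mean of at least 1 FPKM. The 20 expressed members ran from 2.82 ± 1.23 FPKM for Gabrg3 to 398 ± 48.0 FPKM for Gabarapl1, with a median of 27.3 FPKM against 10.5 FPKM over all genes at that threshold. Adaptors of the GABARAP family, the GABA-B subunit gene Gabbr1 and the GABA-A subunit gene Gabra5 stood at the top, and gephyrin itself in the middle.

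**Figure D1:**
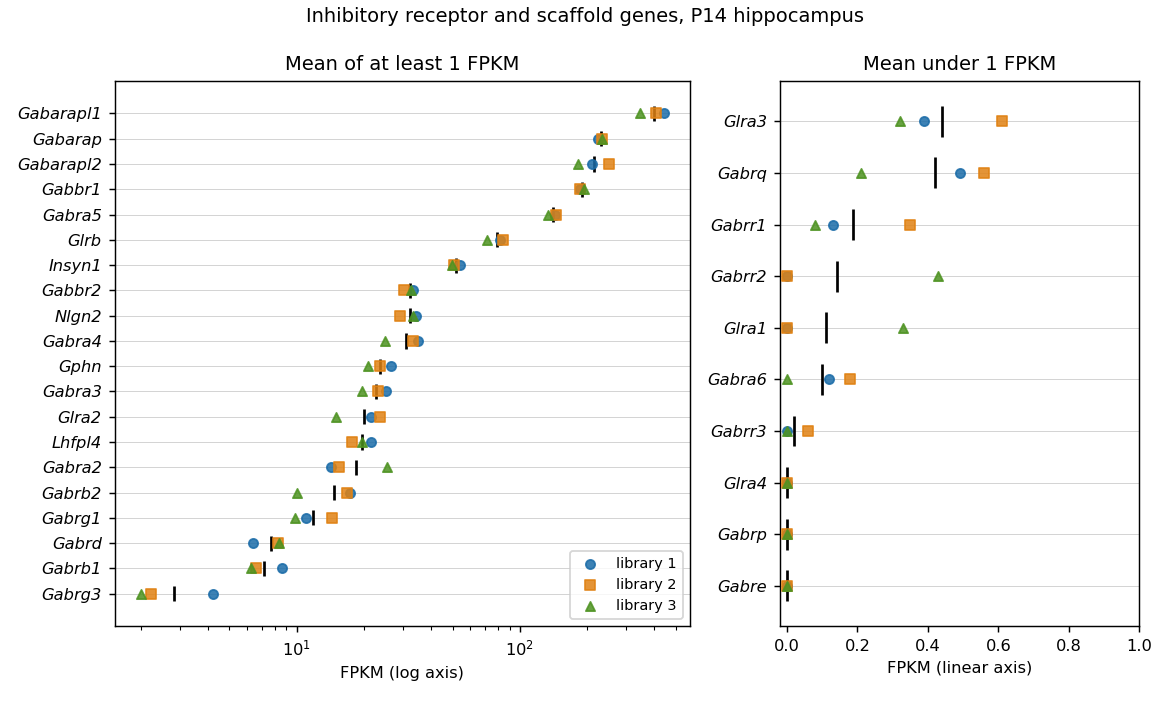
FPKM of each member in libraries 1 (circle), 2 (square) and 3 (triangle), with the mean as a vertical bar, on a log axis for genes at a mean of at least 1 FPKM and on a linear axis for the rest. Gabarapl1 was the highest at 347 to 442 FPKM, and Gabre, Gabrp and Glra4 were at 0 in all 3 libraries.

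Gephyrin was used as the common reference because its lattice anchors both receptor classes. Gphn, which also encodes an enzyme of molybdenum cofactor synthesis, stood at 26.4, 23.7 and 21.0 FPKM in libraries 1, 2 and 3, with a mean of 23.7 ± 2.71 FPKM. Each gene was compared with Gphn inside each library on the log2(FPKM + 1) scale, which understates differences of low genes. The null was a difference of at most 2-fold, because FPKM compared between genes depend on the annotated length and on how well each transcript is captured and mapped. Of the 19 other members tested, 6 were higher than Gphn by more than 2-fold, 3 were lower and 10 were not called (limma's treat test, Benjamini-Hochberg adjusted over 13336 genes). Over all genes tested, 12.6% were called higher and 45.4% lower. Leaving out library 1, 2 or 3 gave 6 higher members each time, and 2, 1 and 3 lower ones. The median difference from Gphn was 0.37 log2 units over the 19 members and -1.12 over all genes.

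**Figure D2:**
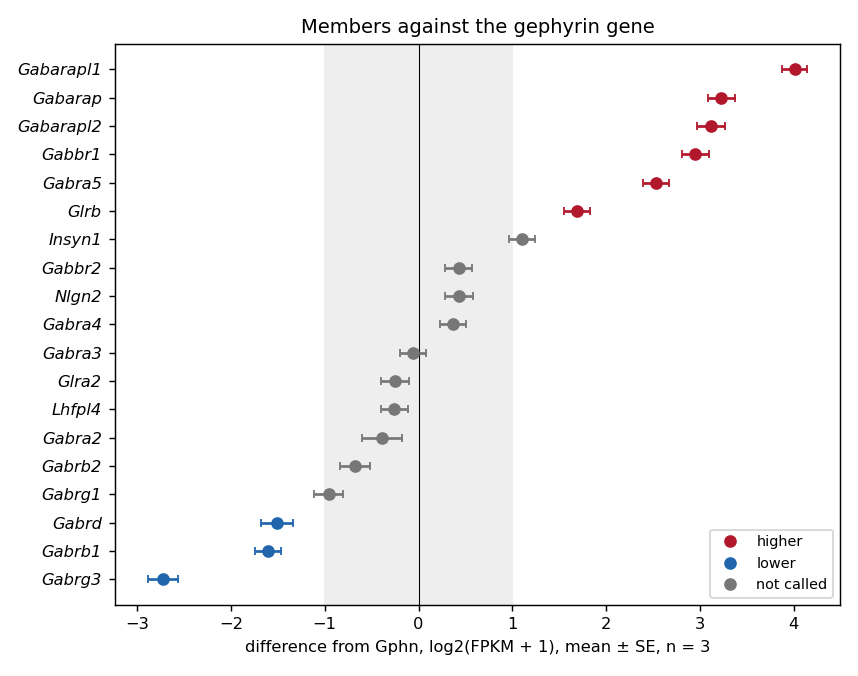
Difference of each tested member from Gphn in log2(FPKM + 1), coloured by call, with the span of 2-fold shaded. Points are means over 3 libraries and bars are limma's SE, with variance pooled in part over genes. Gabarapl1 lies at 4.01 log2 units and Gabrg3 at -2.73.

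Among the alpha subunits of the GABA-A receptor on the list, Gabra5 was the highest in every library. Its product forms receptors of the pyramidal cell membrane outside and inside synapses. Gabra5 was at 144, 145 and 134 FPKM, with a mean of 141 ± 5.80 FPKM, and ranked 718 among 19046 genes above 0. The 3 values lay close together, and Gabra5 was 2.53 log2 units above Gphn (SE 0.140, higher in 3 of 3 libraries, limma adjusted p = 6.73e-06). It made up 66.2% ± 0.539 of the summed FPKM of the 5 listed alpha genes, and this share was between 65.8% and 66.8% in each library.

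Gabra4, the alpha subunit that joins with delta in dentate granule cells, was at 35.0, 33.2 and 24.8 FPKM, or 14.5% ± 2.05 of the listed alpha total. Gabra3, an alpha subunit known for high expression early in development, was at 25.2, 23.1 and 19.6 FPKM. Gabra2, an alpha subunit of synapses on the cell body and axon initial segment, was at 14.3, 15.5 and 25.4 FPKM. Library 3 was the lowest of the 3 for Gabra4 and Gabra3 and the highest for Gabra2, so the order was Gabra4, Gabra3, Gabra2 in libraries 1 and 2 and Gabra2, Gabra4, Gabra3 in library 3. Gabra6 was at 0.12, 0.18 and 0 FPKM, near the worth of single fragments.

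Against Gabra5, all 3 alpha genes tested were lower by more than 2-fold, where 87.1% of all genes were called lower and 2.36% higher. Gabra4 differed by -2.16 log2 units (SE 0.115, limma adjusted p = 8.88e-05), and the ratio of Gabra5 to Gabra4 was 4.63 ± 0.689. Gabra3 differed by -2.59 (SE 0.101, limma adjusted p = 1.16e-05), with a ratio of 6.28 ± 0.576. Gabra2 differed by -2.92 (SE 0.197, limma adjusted p = 0.000108), and its ratio of 8.24 ± 2.59 became 9.71 without library 3. Each was lower in 3 of 3 libraries.

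**Figure D3:**
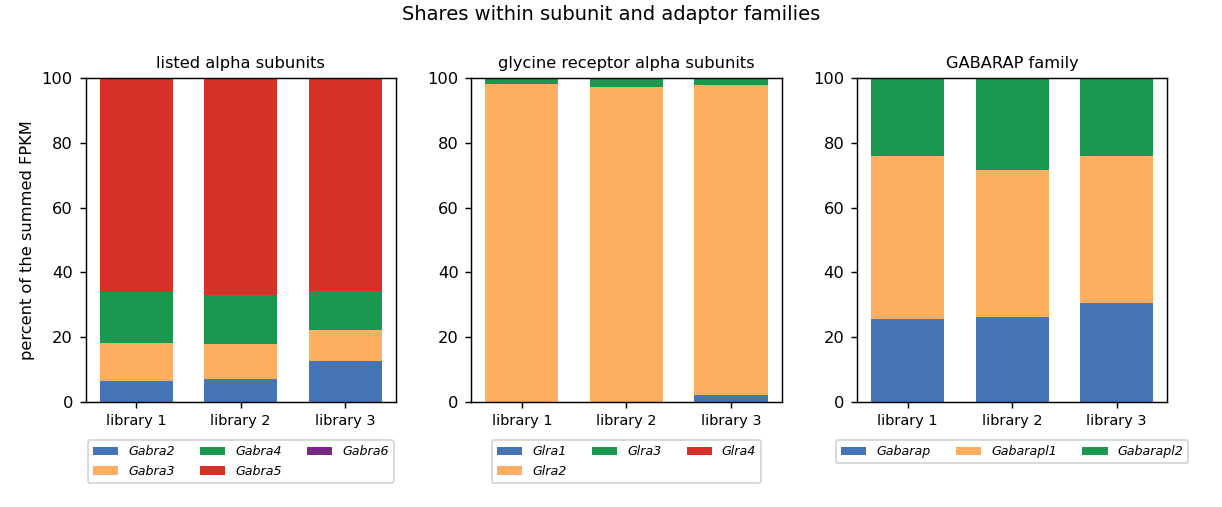
Share of the summed FPKM in each library, as stacked bars from 0 to 100%, for the 5 listed alpha subunits, the 4 glycine receptor alpha subunits and the 3 GABARAP family genes. Gabra5 holds 65.8% to 66.8%, Glra2 95.8% to 98.2% and Gabarapl1 45.6% to 50.5%.

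The beta subunits carry part of the GABA binding site and are needed for assembly. Gabrb2 was at 17.4, 16.8 and 10.0 FPKM and Gabrb1 at 8.57, 6.58 and 6.26 FPKM. Values of Gabrb2 were higher in each library, with a ratio of 2.06 ± 0.476, but the difference of 0.92 log2 units (SE 0.193) was not shown to exceed 2-fold (limma adjusted p = 1, where 31.9% of all genes were called higher than Gabrb1). Against a null of no difference it passed (limma adjusted p = 4.87e-05). Gabrb1 was lower than Gphn, by -1.61 log2 units (SE 0.139, limma adjusted p = 0.00219). That call was lost without library 2 (limma adjusted p = 0.0548, range over the alternatives 3.98e-06 to 0.0548).

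Gamma subunits give GABA-A receptors their benzodiazepine site and their place at synapses. Of the listed ones, Gabrg1, known from glia as well as neurons, was at 10.98, 14.5 and 9.81 FPKM, and Gabrg3 at 4.23, 2.22 and 2.00 FPKM. Gabrg1 was above Gabrg3 in each library and their values did not overlap, with a ratio that ran from 2.60 to 6.52. Gabrg3 was the lowest of the tested members, at -2.73 log2 units from Gphn (SE 0.160, limma adjusted p = 7.12e-06, lower in 3 of 3 libraries).

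Gabrd, the delta subunit of extrasynaptic receptors, was at 6.37, 8.29 and 8.33 FPKM, with library 1 the lowest. These values rested on about 39, 57 and 83 fragments, as estimated from the FPKM, the fitted depth and its longest coding transcript. Gabrd was lower than Gphn by -1.51 log2 units (SE 0.167, limma adjusted p = 0.0131). Its call was lost without library 1 (limma adjusted p = 0.0747) or library 2 (limma adjusted p = 0.0518), within a range of 2.08e-05 to 0.0747 over the alternatives. The ratio of Gabra4, its usual partner in granule cells, to Gabrd was 5.49, 4.01 and 2.98 in libraries 1, 2 and 3, a mean of 4.16 ± 1.26.

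The remaining GABA-A subunit genes were close to or at 0. Gabrq, the theta subunit gene known from hypothalamus and brainstem, was at 0.49, 0.56 and 0.21 FPKM, about 8, 11 and 6 fragments. The rho subunit genes, known for the receptors of the retina, were lower still: Gabrr1 at 0.13, 0.35 and 0.08 FPKM, Gabrr2 at 0, 0 and 0.43, and Gabrr3 at 0, 0.06 and 0. Each of these rho values rested on about 4 fragments or fewer. Gabre, the epsilon gene, and Gabrp, the pi gene, were listed at 0 in all libraries. An exact 0 in an FPKM table can be a failed estimate, so it does not show that a transcript is absent.

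For GABA-B, the ligand-binding subunit gene Gabbr1 was far above its partner Gabbr2, which couples to the G protein. Gabbr1 was at 187, 186 and 194 FPKM (mean 189 ± 4.31), with the smallest relative spread of the expressed members at a coefficient of variation of 2.29%. Gabbr2 was at 33.3, 30.4 and 32.7 FPKM (mean 32.1 ± 1.51). The values did not overlap and the ratio of Gabbr1 to Gabbr2 was 5.61, 6.11 and 5.92. Gabbr2 differed from Gabbr1 by -2.52 log2 units (SE 0.0880, limma adjusted p = 1.02e-05, lower in 3 of 3 libraries), where 90.5% of all genes were called lower than Gabbr1 and 1.75% higher. The level of Gabbr2 lay 0.43 log2 units above Gphn and was not called.

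Among the glycine receptor genes, Glrb and Glra2 carried nearly all of the signal. Glrb, the subunit that ties the receptor to gephyrin, was at 81.2, 83.7 and 71.3 FPKM, or 78.7 ± 6.55 on average. It was 1.69 log2 units above Gphn (SE 0.140, limma adjusted p = 0.000986), with a ratio of 3.34 ± 0.235. Glra2, the alpha subunit known as the form of immature neurons, was at 21.6, 23.7 and 15.0 FPKM, with library 3 the lowest.

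Glra2 was lower than Glrb by more than 2-fold (a difference of -1.94 log2 units, SE 0.136, limma adjusted p = 0.000154, lower in 3 of 3 libraries). Over all genes 77.4% were called lower than Glrb. The ratio of Glrb to Glra2 was 3.77, 3.54 and 4.77. Glra2 made up 97.2% ± 1.22 of the summed FPKM of the 4 alpha genes. Glra3 was at 0.39, 0.61 and 0.32 FPKM, on about 9, 16 and 12 fragments. Glra1, known as the adult form of spinal cord and brainstem, was at 0, 0 and 0.33 FPKM, and Glra4 was listed at 0 in all libraries.

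Genes of 3 proteins that organise the inhibitory postsynapse were compared with gephyrin, and none was called higher or lower by more than 2-fold. Insyn1, which binds gephyrin and the dystrophin complex, was at 54.1, 50.9 and 49.7 FPKM. Nlgn2, the neuroligin of inhibitory synapses, was at 34.1, 29.0 and 33.3 FPKM. Lhfpl4, a tetraspan protein that links GABA-A receptors to neuroligin-2, was at 21.5, 17.7 and 19.7 FPKM. The ratios to Gphn were 2.19 ± 0.163 for Insyn1, 1.37 ± 0.194 for Nlgn2 and 0.834 ± 0.0963 for Lhfpl4, with the same side of Gphn in 3 of 3 libraries each. Insyn1 differed by 1.10 log2 units (SE 0.140, limma adjusted p = 0.394), Nlgn2 by 0.43 (SE 0.147) and Lhfpl4 by -0.26 (SE 0.144), the last 2 with a limma adjusted p = 1. Against a null of no difference, Insyn1 passed (limma adjusted p = 5.72e-05) and so did Nlgn2 (limma adjusted p = 0.0213).

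The GABARAP family are small ubiquitin-like proteins of the ATG8 group, which bind receptor gamma subunits during transport and also serve in autophagy. Gabarapl1 was at 442, 405 and 347 FPKM, Gabarap at 223, 233 and 232 FPKM and Gabarapl2 at 210, 251 and 182 FPKM. Gabarapl1 was above both paralogs in each library, while Gabarap and Gabarapl2 overlapped and changed places in library 2. Gabarapl1 held 47.2% ± 2.86 of the family total. Its difference from Gabarap, 0.78 log2 units (SE 0.115), was not shown to exceed 2-fold (limma adjusted p = 0.979) and passed a null of no difference (limma adjusted p = 0.000934). Gabarapl2 differed from Gabarap by -0.11 (SE 0.121, limma adjusted p = 1). Called higher and lower than Gabarap were 1.47% and 92.4% of all genes. The 3 family members were among the 6 members above Gphn, the lowest of them by 3.12 log2 units (Gabarapl2, SE 0.149, limma adjusted p = 1.61e-06).

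Several receptor genes lie in clusters (GRCm38, RefSeq), and close neighbours could stand at very different levels. On chromosome 5 the order is Gabrg1 (70751047 to 70842617), Gabra2 (70958392 to 71095849), Gabra4 (71569734 to 71658308) and Gabrb1 (71657921 to 72149572), with means of 11.8, 18.4, 31 and 7.14 FPKM. The annotated spans of Gabra4 and Gabrb1 overlap by 388 bases at their starts, and their GENCODE exons by 46 bases. Gabra4 was 1.97 log2 units above Gabrb1 (SE 0.190, limma adjusted p = 2.33e-05, against 31.9% of all genes), with a ratio of 4.08, 5.05 and 3.96. Both were highest in library 1 and lowest in library 3. Whether counting used strand is not given in the sources used here, so reads from the shared stretch could fall to either gene.

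On chromosome 7, Gabrg3 (56716463 to 57387215) and Gabra5 (57407669 to 57591016) are 20.5 kb apart, yet Gabrg3 was -5.26 log2 units from Gabra5 (SE 0.172, limma adjusted p = 2.20e-06, against 87.1% of all genes called lower). The ratio of Gabra5 to Gabrg3 was 34.1, 65.2 and 67.2. The annotated spans of Gabra5 and Gabrd also overlap 1 other protein-coding gene each. On the X chromosome, Gabra3 (72432676 to 72656919) at 22.6 ± 2.85 FPKM lies between Gabre (72256926 to 72274828), listed at 0, and Gabrq (72825163 to 72842607), under 1 FPKM. On chromosome 11, Gabrb2 (42419515 to 42632591) and the near-0 Gabra6 (42306437 to 42321072) are 98.4 kb apart. On chromosome 4, Gabrr2 (33057712 to 33095865) and Gabrr1 (33132556 to 33163588) are 36.7 kb apart and both were under 1 FPKM.

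**Figure D4:**
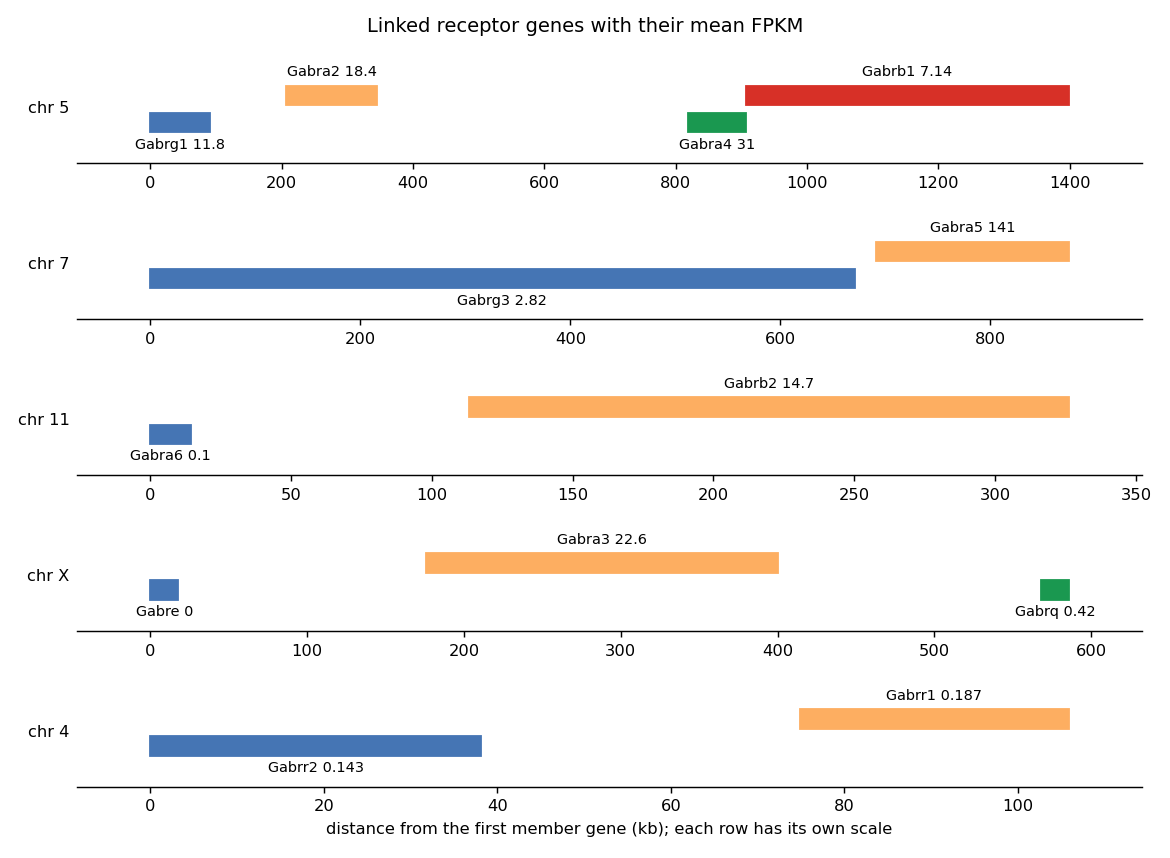
Linked member genes on chromosomes 5, 7, 11, X and 4, drawn to scale as bars along the distance in kb from the first member of each cluster, with the mean FPKM beside each name. Gabra5 at 141 FPKM stands beside Gabrg3 at 2.82 FPKM.

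Library 3 held the lowest value for 13 of the 20 expressed members, where 33.8% of all genes were lowest there, and library 1 the highest for 11, where 36.5% were highest. With FPKM rescaled to the same sum in each library, library 3 was lowest for 3 and library 2 for 14. That sum contains Bc1, and with Bc1 left out of it library 3 was again lowest for 13. Library 3 was the highest for 3 members: Gabra2, Gabbr1 and Gabrd. Gabra2 had 1.71 times the mean of libraries 1 and 2 in library 3 (1.69 to 2.09 over the scalings). Without library 3 its mean of 18.4 ± 6.12 FPKM became 14.9.

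The spread of Gabra2 on the log2(FPKM + 1) scale was wider than that of 94.7% of the 2658 genes within 1.5 times its level. For Gabrb2 this share was 92.6% and for Glra2 89.8%, both lowest in library 3. At the other end, Gabbr1 was wider than 6.28% and Gabarap than 8.81% of genes of like level. The median coefficient of variation was 12.3% over the expressed members and 13.8% over all genes at 1 FPKM or more. Summed markers of excitatory neurons were 682, 599 and 690 FPKM and those of interneurons 1842, 2108 and 1942 FPKM in libraries 1, 2 and 3, and choroid plexus sums are given above. Slc17a7 made up most of the excitatory sum, and Cck and Sst most of the interneuron sum. The part of these marker sums in the differences between libraries was not tested.

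**Figure D5:**
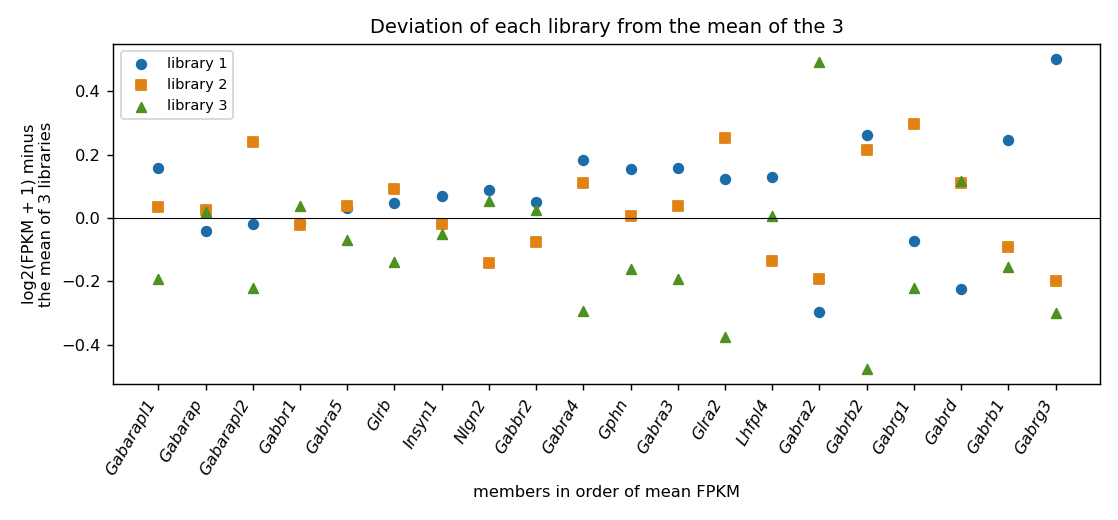
Deviation of each library from the mean of the 3 libraries, in log2(FPKM + 1), for the 20 members at 1 FPKM or more, in order of mean level. Library 3 (triangle) is highest for Gabra2 and lowest for 13 members.

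Other genes of inhibitory signalling were read from the same comparison with Gphn. Of 53 genes tested from 8 lists, 7 were higher by more than 2-fold, 15 were lower and 31 were not called, with a median difference of -0.52 log2 units. Over all genes the shares were 12.6% and 45.4%, and the median was -1.12.

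In GABA supply and clearance, 1 of 8 was higher and 1 lower. Abat, the GABA transaminase gene, was the highest at 69.2 FPKM and 1.51 log2 units above Gphn (SE 0.148, limma adjusted p = 0.00741). Slc6a11, a GABA transporter gene of astrocytes, was at 55.3 FPKM and Gad1, a GABA-synthesising enzyme gene, at 52.5 FPKM, neither called. In glycine supply and clearance, 2 of 8 were higher and 2 lower. Gcsh and Dld, subunits of the glycine cleavage system, were at 98.0 and 74.3 FPKM and were the higher ones (2.01 and 1.61 log2 units above Gphn). Gldc and Amt of the same system were at 15.6 and 11.1 FPKM, with differences from Gphn of -0.57 and -1.02 log2 units. Both were below Gphn in 3 of 3 libraries and neither was called. Slc7a10, a neutral amino acid transporter gene that carries glycine and D-serine, was at 30.6 FPKM. Slc6a5, the neuronal glycine transporter gene, was listed at 0 in all libraries.

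Among GABA-B auxiliary proteins and effector channels, 0 of 9 were higher and 4 lower. Kctd12, a subunit that speeds receptor desensitisation, was at 26.9 FPKM, Pianp, a ligand of the Gabbr1 sushi domain, at 24.4 FPKM, and the potassium channel gene Kcnj3 at 11.8 FPKM. Among genes of GABA-A receptor trafficking, 1 of 12 was higher and 2 lower. Nsf, the ATPase of vesicle fusion, was higher at 139 FPKM (2.50 log2 units above Gphn), and Clptm1, which holds receptors in the endoplasmic reticulum, and Trak2, a transport adaptor, stood at 57.1 and 47.9 FPKM without a call.

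Of the inhibitory synapse organisers, 0 of 6 were higher and 2 lower, and Insyn2b was not analysed here. Dag1, the dystroglycan gene, was at 35.3 FPKM, Iqsec3, an exchange factor that binds gephyrin, at 28.1 FPKM, and the adhesion gene Slitrk3 at 13.5 FPKM. The molybdenum cofactor genes split, with Mocs2 higher at 92.2 FPKM (1.92 log2 units above Gphn) and Mocs3 and Mocs1 lower at 6.91 and 2.42 FPKM. In the ATG8 list 2 of 5 were higher and 1 lower. Map1lc3a and Map1lc3b, relatives of the GABARAP genes, were the higher ones at 415 and 140 FPKM (4.08 and 2.52 log2 units above Gphn), and the conjugating enzyme gene Atg3 was at 34.9 FPKM. For chloride cotransport, which sets the direction of the current, the exporter gene Slc12a5 was not called against Gphn at 41.9 FPKM and the importer gene Slc12a2 was lower at 6.00 FPKM.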

How the data were processed

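The authors deposited FPKM values for the 3 libraries in 1 table, per the file headers, and each column was tied to the sample whose title carries its number. Sequencing was paired-end, per the labels' protocols. Bowtie2 and GRCm38 (mm10) are named in the submitters' processing notes. The counting tool, annotation, strand setting and the treatment of reads shared by gene copies have no statement among the labels and headers read, so values of paralogs and overlapping genes are uncertain. FPKM were used as deposited.

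Depth was estimated by choosing the fragment total, and the bases taken off each length, that made values of at most 4 fragments whole for genes with 1 transcript of at least 800 bases. Then 92.9%, 92.1% and 90.6% were within 0.15 of a whole number, where evenly spread values give 30%. Both were fitted on these same values. Fragment numbers given for members were estimated from the FPKM, this depth and the longest coding transcript, and were not counted. They cover counting error only.

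Genes were compared within libraries on log2(FPKM + 1) for a mean of at least 1 FPKM, with limma 3.58.1 in R 4.3.3 and calls at adjusted p under 0.05. Each SE is limma's moderated SE, in which a gene's variance is drawn toward a value shared by all genes tested. Differences from the same reference gene share its values and are not independent. The fit was also run on simulated data, but with a reference gene that did not vary and independent genes. That run therefore does not cover noise in the reference. Every member is named, and at least the 3 highest genes of each other list. Members and lists were chosen with earlier results of these data known. One marker gene is not reported here. Coordinates are from RefSeq (GRCm38.p6) and transcripts from GENCODE M21. Alternatives were another pseudocount, filters, a null of no difference, a variance trend, rescaling and leaving out each library. Python 3.11.15, numpy 2.4.6, pandas 2.3.3 and matplotlib 3.10.9 were used.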

Additional observations from a re-analysis of the deposited data

How the results depend on the processing

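When limma tested against 0 rather than against 2-fold, 10 members were higher and 5 lower than Gphn, and 16 pathway genes were higher and 28 lower. In that test Gabrb2 differed from Gabrb1 (0.92, limma adjusted p = 4.87e-05) and Gabarapl1 from Gabarap (0.78, limma adjusted p = 0.000934). With no filter on low values 10 members were lower than Gphn, since 26 were tested. With a mean of at least 5 FPKM 6 pathway genes were lower, since 44 were tested. No share over all genes was worked out for these alternatives, so their counts do not set members or pathway genes apart from other genes. Leaving out each library in turn gave 1 to 3 lower members (1 without library 2), and the difference of Gabarapl2 from Gabarap ran from -0.22 to 0.01, turning sign without library 3. The cause was not tested. The other comparisons in the report between members and Gabra5, Gabbr1 or Glrb that were fixed as tests kept their direction and their call under every alternative run. A pseudocount of 0.1 and a variance trend changed no call among the comparisons followed gene by gene. Pathway genes were followed only as totals, which stayed at 7 higher and 15 lower in these 2 settings. Gabra4 against Gabrb1 and Gabrg3 against Gabra5 were not followed through the alternatives. Rescaling to the same sum raised all levels, by factors of 1.22 to 1.57 per library. Median-of-ratios scaling and rescaling without Bc1 were added after seeing the data, and library 3 was lowest for 13 members under both. No paired analysis was possible because there is 1 group, and each difference was already formed inside a library. Depth limits the 7 members above 0 but under 1 FPKM.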

Other observations

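Gabra2 was not alone in being high in library 3. Kctd16, an auxiliary subunit gene of the GABA-B receptor, was at 2.99, 3.53 and 7.80 FPKM, and Wfs1, a gene of CA1 pyramidal cells, at 13.9, 14.5 and 23.7 FPKM in libraries 1, 2 and 3. The other listed excitatory neuron markers did not share this pattern: Neurod6 (135, 103 and 104 FPKM), Neurod2 (40.7, 29.9 and 32.0), Prox1 (11.5, 9.63 and 8.56) and Zbtb20 (7.38, 6.24 and 5.11) were highest in library 1, and Slc17a7 (448, 415 and 492) and Fibcd1 (24.4, 20.5 and 24.8) were highest in library 3 by a smaller margin. None of the 8 other genes of the GABA-B auxiliary list was highest in library 3. Kctd16 and Wfs1 were picked out after their values were seen, and no test of a single library was possible.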
